A study of Mus musculus with 30 samples.

Results

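Myeloid and mast cell genes were followed through mouse cells arrested at early steps of B cell development. The set holds 43 genes that were listed by name, 38 of myeloid cells and 5 of mast cells and basophils, and 42 of them had a probe among the 21306 named genes of the array. Only Cebpe, a C/EBP factor of late granulocytes, had none. The brightest probe stood for each gene. RNA from 3 groups of C57BL/6 cells was measured on 2-colour arrays, with 2 samples per group. E2A-/- pre-pro-B cells and EBF-/- pre-pro-B cells lack a transcription factor needed to enter the B lineage, and both grew in the presence of FLT3 ligand, SCF and IL-7 on a layer of S17 stromal cells. RAG1-/- pro-B cells are committed to the B lineage but cannot rearrange antigen receptor genes. They were selected for B220 from femoral bone marrow of RAG1-/- mice, then grown for 10 d in SCF and IL-7, with no stromal layer or FLT3 ligand named. What genotype and what culture contribute cannot be told apart where RAG1-/- cells are compared. Chromatin immunoprecipitation sequencing (ChIP-seq) gave 1 peak list for each of 23 libraries and 1 mock library, in EBF-/- cells, RAG1-/- cells, E2A-/- cells and the A12 T cell line. In the E2A-/- and A12 libraries the cells carried tamoxifen-activated E47-ER, an E2A protein, or bHLH-ER, its form without the transactivation domains.

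Myeloid cells arise from progenitors in which PU.1 and the C/EBP factors switch on receptors for growth factors, granule enzymes and the oxidase that kills microbes. Granulocyte genes are turned on in order, with myeloperoxidase and the serine proteases early and the calgranulins S100a8 and S100a9 later. Mast cells and basophils store their own proteases and carry the high-affinity IgE receptor. E2A, EBF1 and PAX5 are known from mouse work for restricting early lymphoid cells to the B lineage, and progenitors that lack them keep other fates open.

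All levels below are quantile-normalized log2 signals of 1 probe, and levels of different probes cannot be set against each other. A level called dim was not well above background by the scanner's flag. Where samples of different groups are said to lie apart, the share of all genes so separated was not counted. Of 42 members with a probe, 15 were well above background in all 6 samples. Trem1, Mmp9, Camp and Lcn2 were dim in all 6, so that 4 members gave no measured level anywhere. A gene was tested where 1 of the groups or more had it well above background in each of its 2 samples, which held for 12814 genes and 30 members. Of these 30, 9 passed through 2 of the groups and 6 through 1 group, namely Prtn3, Mmp8 and Clec5a through E2A-/- and S100a9, Prss34 and Fcer1a through RAG1-/-. Such members had to differ between groups in the flag, though not always in level, so counts over the 30 are given as a description. The lowest level flagged well above background ran from 3.92 in E2A-/- replicate 1 to 6.86 in E2A-/- replicate 2. The 12 that did not pass were Csf3r, Elane, S100a8, Trem1, Mmp9, Clec7a, Camp, Ltf, Lcn2, Msr1, Mcpt8 and Ms4a2.

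Facts of the whole series that bear on these levels are few. Across the 6 samples 40.9% to 61.8% of 43379 spots were well above background. Tcf3, which encodes E2A, had a mean level of 10.12 in the E2A-/- group, against 13.40 for EBF-/- and 14.85 for RAG1-/- cells. Ebf1 averaged 6.17, 10.88 and 12.48 and Rag1 4.99, 9.68 and 10.83 in the same order, so neither was lowest in the group that lacks its protein. The sources used here do not say whether these probes lie in the deleted parts, and a probe outside them checks nothing. B lineage markers were brightest in RAG1-/- cells, with 13 of 13 tested called higher than in EBF-/- cells. They also separated the E2A-/- samples: 12 of 13 were more than 2-fold brighter in replicate 1, which shared its array with RAG1-/- replicate 1, than in replicate 2, where 5 of the 14 on the array were well above background. None of the 27 myeloid members tested was more than 2-fold apart between the E2A-/- samples. The 3 mast cell members tested (Cpa3, Prss34 and Fcer1a) were, and all 3 were dim in replicate 2.

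Promoter windows are shown for 3 tested granule and antimicrobial genes, S100a9, Ctsg and Mpo. They had the widest measured gap between the RAG1-/- samples among tested members of that kind. Windows are also shown for Mmp8 and Clec5a, which were bright in E2A-/- and dim in EBF-/- samples. These last were chosen by their fitted change, which does not rank genes that are dim in a group. Each runs from 250 bases before to 50 bases after the RefSeq gene start on build GRCm38.p6, 5′ to 3′ on the gene's strand. Capitals mark GAGGAA, a core of PU.1 sites, and TTNNGNAA, a core of C/EBP sites, on either strand.
S100a9, chr3:90695672-90695971, minus strand: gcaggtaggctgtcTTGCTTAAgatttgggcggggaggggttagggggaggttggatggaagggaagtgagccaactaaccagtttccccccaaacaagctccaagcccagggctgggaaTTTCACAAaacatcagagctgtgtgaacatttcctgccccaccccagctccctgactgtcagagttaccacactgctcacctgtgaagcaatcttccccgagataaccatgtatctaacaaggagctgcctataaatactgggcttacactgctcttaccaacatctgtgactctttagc
Ctsg, chr14:56102525-56102824, minus strand: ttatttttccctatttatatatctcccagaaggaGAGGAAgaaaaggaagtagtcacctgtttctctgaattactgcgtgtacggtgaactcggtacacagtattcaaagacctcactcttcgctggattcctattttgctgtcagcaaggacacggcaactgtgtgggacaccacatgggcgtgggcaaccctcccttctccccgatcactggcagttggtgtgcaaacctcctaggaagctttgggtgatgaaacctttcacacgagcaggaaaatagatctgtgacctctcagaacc
Mpo, chr11:87793534-87793833, plus strand: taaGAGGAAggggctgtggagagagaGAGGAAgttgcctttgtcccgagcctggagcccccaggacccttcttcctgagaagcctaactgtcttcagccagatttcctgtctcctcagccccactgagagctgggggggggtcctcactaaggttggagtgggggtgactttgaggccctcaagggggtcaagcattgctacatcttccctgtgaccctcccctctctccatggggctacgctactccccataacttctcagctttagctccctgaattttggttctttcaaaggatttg
Mmp8, chr9:7558179-7558478, plus strand: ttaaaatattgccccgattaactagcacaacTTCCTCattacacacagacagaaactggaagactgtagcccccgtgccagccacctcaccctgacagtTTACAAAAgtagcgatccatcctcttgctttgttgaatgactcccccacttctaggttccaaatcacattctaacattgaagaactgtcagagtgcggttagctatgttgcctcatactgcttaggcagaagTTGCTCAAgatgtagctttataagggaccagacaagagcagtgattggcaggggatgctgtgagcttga
Clec5a, chr6:40585756-40586055, minus strand: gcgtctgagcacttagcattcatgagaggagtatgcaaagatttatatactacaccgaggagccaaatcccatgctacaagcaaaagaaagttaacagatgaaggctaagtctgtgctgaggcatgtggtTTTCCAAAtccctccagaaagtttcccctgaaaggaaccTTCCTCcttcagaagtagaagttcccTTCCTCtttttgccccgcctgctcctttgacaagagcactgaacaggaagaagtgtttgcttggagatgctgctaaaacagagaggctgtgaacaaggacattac

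The S100a9 window held 2 matches to the C/EBP core and none to the PU.1 core, while those of Ctsg and Mpo held 1 and 2 matches to the PU.1 core and none to the C/EBP core. Mmp8 had 1 PU.1 and 2 C/EBP matches, and Clec5a had 2 and 1. Of the 43 members, 32 had a window in the RefSeq table. GAGGAA was found in at least 1 window of 20 of these 32 (62.5%), against 31.3% of 27025 genes. TTNNGNAA was found for 15 members (46.9%) and 44.1% of genes. CAGNTG, the E box that E2A binds, was found for 17 members (53.1%) and 54.6% of genes, and CCCNNGGG, a core of EBF1 sites, for 6 members (18.8%) and 15.4% of genes. These matches describe letters in a window and were not tested. Overlaps between different motifs were not removed, and a gene with several start sites had several windows.

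**Figure D1:**
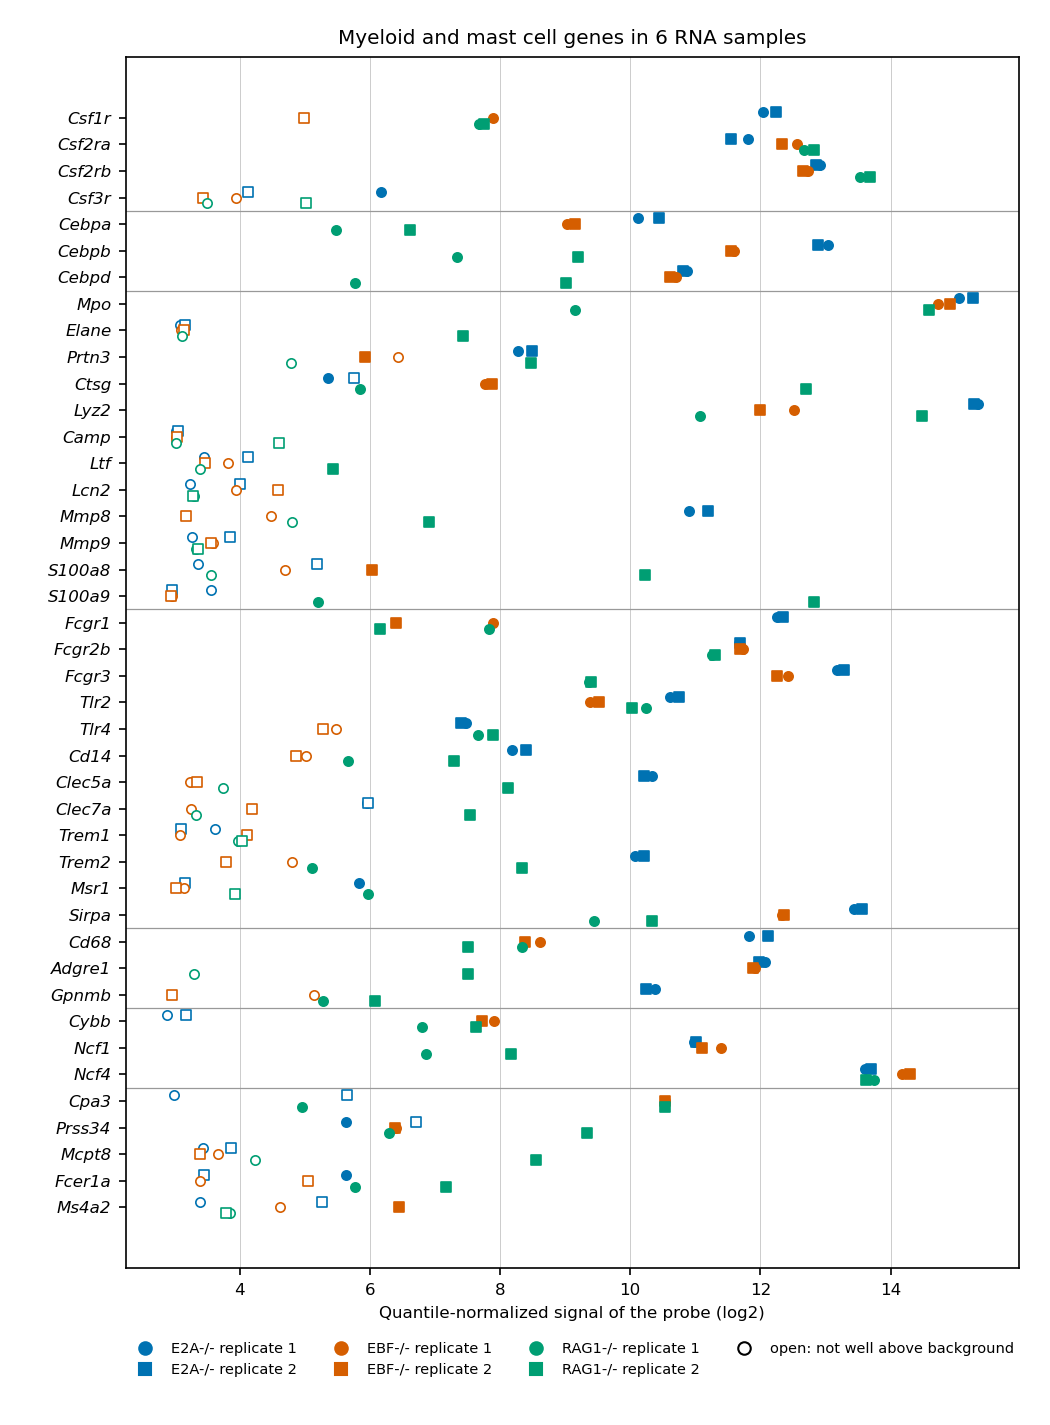
Quantile-normalized log2 signal (x axis) of the 42 members with a probe (y axis, grouped by role) in the 6 RNA samples, with circles for replicate 1, squares for replicate 2 and open symbols where the probe was not well above background. Mpo lies near 15 in 5 samples and at 9.15 in RAG1-/- replicate 1, and S100a9 reaches 12.82 in RAG1-/- replicate 2 alone.

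Between EBF-/- and E2A-/- pre-pro-B cells, which were grown alike, most changes of members were falls of macrophage and receptor genes. In EBF-/- cells 12 of 30 tested members were lower and 3 higher (limma, Benjamini-Hochberg adjusted p under 0.05), against 11.6% and 12.6% of all 12814 genes. The median change was -1.02 over the 30 members and -0.01 over all genes. Among antibody, pathogen and lectin receptors 8 of 9 tested fell, and among macrophage membrane proteins 2 of 3. Of those that fell, Clec5a passed the filter through E2A-/- cells alone. Trem2, Cd14, Tlr4 and Gpnmb were also dim in both EBF-/- samples and passed through the other groups. For these genes a low EBF-/- level is tied to the filter, so the counts are a description only. None of the 3 C/EBP genes and none of the 3 mast cell genes tested was called by limma, although 2 of the C/EBP and 1 of the mast cell genes had an unadjusted p under 0.05. The counts depended on the samples used, and so did those over all genes. Without EBF-/- replicate 2, 4 members were lower and 0 higher, against 1.84% and 1.79% of all genes. Without EBF-/- replicate 1 they were 5 and 1, against 2.44% and 2.23%, and without E2A-/- replicate 2 they were 7 and 1, against 4.48% and 5.72%. Without RAG1-/- replicate 1 they were 17 and 5, against 20.2% and 21.5%, and the same member counts came without RAG1-/- replicate 2, against 20.3% and 21.6%. With only genes well above background in all 6 samples, 4 of the 15 members tested were lower, against 11.5% of genes. Leaving out 1 sample ended the call of 11 of the 15 members (adjusted p 0.0502 to 0.243, limma), namely Cd14, Clec5a, Csf2ra, Cybb, Fcgr1, Fcgr3, Ncf4, Sirpa, Tlr2, Tlr4 and Trem2. In bulk RNA of this kind, fewer cells of a type and less RNA per cell cannot be told apart. The labels do not say whether the replicates are separate cultures or animals, so p-values measure only the spread between these samples, which may be technical. The fit shared each gene's spread over all groups. A gap between the RAG1-/- samples thus also widens the SE between the pre-pro-B groups, and a member not called there is not shown to be unchanged.

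In RAG1-/- pro-B cells against E2A-/- cells, 16 of 30 tested members were lower and 3 higher, against 23% and 22.8% of all genes, with a median change of -2.89 and 0.03 over all genes. With only genes well above background in all 6 samples, 10 of the 15 members tested were lower, against 25.1% of genes. Without RAG1-/- replicate 1, 7 were higher, against 21.6%. Without RAG1-/- replicate 2, 20 were lower and 3 higher, against 26.5% and 24.3%. Against EBF-/- cells, 9 of 30 were lower and 4 higher, against 22.5% and 21.2% of all genes, with a median of 0.36 and 0.04 over all genes. Without RAG1-/- replicate 1, 12 were higher than in EBF-/- cells, against 21% of all genes, and without RAG1-/- replicate 2 the count was 4, against 22.1%. Without EBF-/- replicate 2, 5 were lower, against 10.4%, and without EBF-/- replicate 1, 6 were lower, against 9.78%. Leaving out 1 sample ended the calls of Cebpd, Clec5a, Csf1r, Fcgr2b, Tlr2 and Trem2 against E2A-/- cells (adjusted p 0.0548 to 0.189, limma) and of Adgre1, Cebpd, Csf2ra, Fcgr2b, Ncf4 and Tlr2 against EBF-/- cells (adjusted p 0.0519 to 0.27, limma). The 3 comparisons share their samples, so their counts are not independent of each other.

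**Figure D2:**
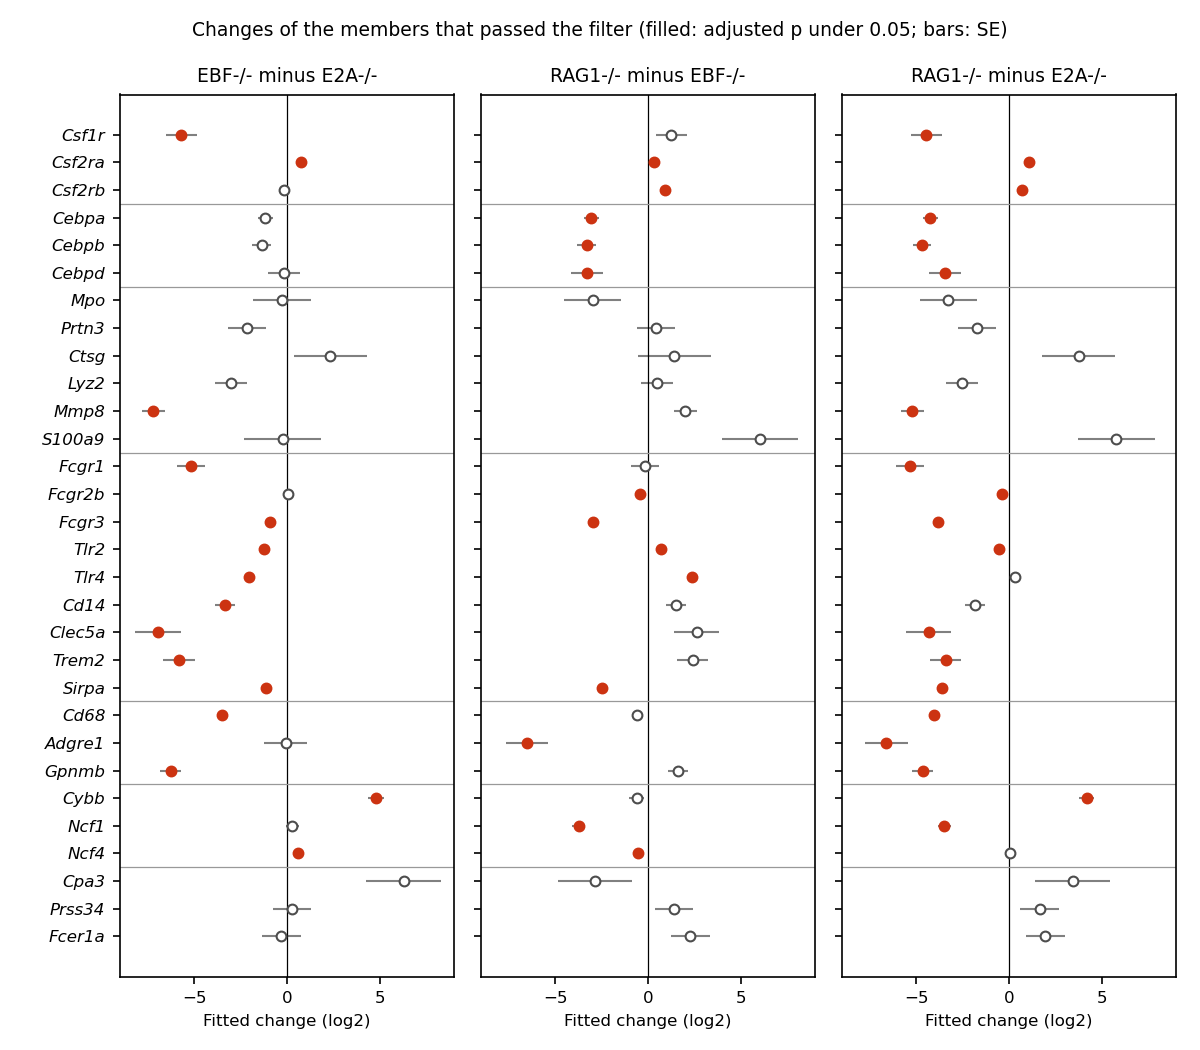
Fitted log2 change (x axis) with its standard error (bars, n = 2 samples per group) of the 30 members that passed the filter (y axis, grouped by role) in the 3 comparisons, with filled points where the adjusted p was under 0.05. Fitted changes against a group with only dim samples are included and are not bounds. In EBF-/- minus E2A-/- the filled points are 12 falls and 3 rises.

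The growth factor receptors went separate ways. Csf1r, the macrophage colony-stimulating factor receptor, was at 12.04 and 12.24 in E2A-/- samples, 7.90 and a dim 4.99 in EBF-/- samples and 7.67 and 7.76 in RAG1-/- samples. The groups did not overlap between E2A-/- and the others, and the EBF-/- samples were far apart. Csf1r fell by 5.70 (SE 0.83, adjusted p = 0.0141, limma) in EBF-/- cells and fell by 4.45 (SE 0.83, adjusted p = 0.0139) in RAG1-/- cells. Csf2ra, the binding chain of the GM-CSF receptor, was at 11.80 and 11.54, then 12.56 and 12.33, then 12.67 and 12.82 in the same order of groups. It was higher by 0.77 (SE 0.08, adjusted p = 0.00666, limma) in EBF-/- and by 1.07 (SE 0.08, adjusted p = 0.00129) in RAG1-/- than in E2A-/- cells. The further step of 0.30 from EBF-/- to RAG1-/- (SE 0.08, adjusted p = 0.0395) lost its call without the dye term (adjusted p = 0.125, limma). Csf2rb, the signalling chain shared with the IL-3 and IL-5 receptors, lay between 12.65 and 12.91 in the pre-pro-B samples and at 13.54 and 13.68 in RAG1-/- samples. Both RAG1-/- samples were above every other sample, by 0.92 (SE 0.07, adjusted p = 0.00184, limma) over EBF-/- cells. Csf3r, the G-CSF receptor of neutrophils, was well above background in 1 sample, E2A-/- replicate 1, at 6.17.

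C/EBP genes were bright in both pre-pro-B groups and low in RAG1-/- cells. Cebpa, which starts granulocyte development, was at 10.12 and 10.45 in E2A-/-, 9.03 and 9.15 in EBF-/- samples, and 5.47 and 6.61 in RAG1-/- samples. Cebpb, which takes part in emergency granulopoiesis and macrophage activation, was at 13.04 and 12.88, then 11.60 and 11.54, then 7.33 and 9.20. Cebpd was at 10.87 and 10.82, 10.70 and 10.61, and 5.77 and 9.02. No RAG1-/- sample reached a pre-pro-B sample for any of these genes, and the share of all genes with such a gap was not counted. Against EBF-/- cells Cebpa fell by 3.05 (SE 0.40, adjusted p = 0.00579, limma), Cebpb by 3.31 (SE 0.49, adjusted p = 0.00767) and Cebpd by 3.27 (SE 0.87, adjusted p = 0.0397). Between EBF-/- and E2A-/- cells Cebpa (-1.18, adjusted p = 0.108, limma) and Cebpb (-1.38, adjusted p = 0.116) were not called. No EBF-/- sample reached an E2A-/- sample for either gene. As the spread was shared over the groups, the gap between the RAG1-/- samples entered these p-values too.

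Several granule genes were spread widely within the RAG1-/- group. Mpo, the enzyme that makes hypochlorous acid in the primary granules, was at 15.04 and 15.26 in E2A-/-, 14.73 and 14.91 in EBF-/- samples, and 9.15 and 14.59 in RAG1-/- samples. Thus RAG1-/- replicate 2 lay close to the pre-pro-B samples and replicate 1 far below them. Lyz2, lysozyme of macrophages and granulocytes, was at 15.34 and 15.28, 12.52 and 11.99, and 11.08 and 14.49. Prtn3, proteinase 3, was at 8.27 and 8.48 in E2A-/-, a dim 6.44 and 5.93 in EBF-/- samples, and a dim 4.78 and 8.48 in RAG1-/- samples. Ctsg, cathepsin G, followed another order, at 5.35 and a dim 5.76, then 7.76 and 7.88, then 5.86 and 12.70. None of Mpo, Lyz2, Prtn3 and Ctsg was called in any comparison, the lowest adjusted p being 0.0711 for Lyz2 in EBF-/- against E2A-/- cells (limma). Elane, neutrophil elastase, was dim in 5 samples and at 7.43 in RAG1-/- replicate 2.

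Calgranulin genes were measured almost solely in RAG1-/- replicate 2. S100a9 was dim in all 4 pre-pro-B samples (2.95 to 3.56), at 5.20 in RAG1-/- replicate 1 and at 12.82 in replicate 2. Its partner S100a8 was dim in 4 samples, at 6.03 in EBF-/- replicate 2 and at 10.22 in RAG1-/- replicate 2. S100a9 in RAG1-/- cells was at least 9.71-fold above EBF-/- cells (adjusted p = 0.0737, limma) and at least 12.3-fold above E2A-/- cells (adjusted p = 0.0805), and neither passed. Such a bound divides the bright group's mean by that of the dim group after each dim sample was raised to its lowest level of any probe well above background, unless the probe itself was higher. Of the genes of later granules, Camp, Lcn2 and Mmp9 were dim throughout, and Ltf was at 5.43 in RAG1-/- replicate 2 and dim elsewhere. Mmp8, the neutrophil collagenase, was the exception among them. It was at 10.90 and 11.19 in E2A-/- samples, dim in both EBF-/- samples, and a dim 4.81 and 6.90 in RAG1-/- samples. It was at least 39.9-fold lower in EBF-/- than in E2A-/- cells (adjusted p = 0.0046, limma).

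Fc receptors for IgG did not move together. Fcgr1, the high-affinity receptor, was at 12.25 and 12.35 in E2A-/-, 7.89 and 6.40 in EBF-/- samples, and 7.83 and 6.15 in RAG1-/- samples. It fell by 5.17 (SE 0.76, adjusted p = 0.0145, limma) in EBF-/- and fell by 5.33 (SE 0.76, adjusted p = 0.00656) in RAG1-/- cells. Fcgr3, a low-affinity activating receptor, stepped down from 13.18 and 13.28 through 12.42 and 12.25 to 9.37 and 9.40. It fell by 2.95 from EBF-/- to RAG1-/- cells (SE 0.10, adjusted p = 0.00044, limma), and each group lay apart from the next. Fcgr2b, the inhibitory receptor that B cells carry too, stayed between 11.26 and 11.74 in all samples and was lower in RAG1-/- than in EBF-/- cells by a fitted -0.43 (SE 0.08, adjusted p = 0.0158, limma). The probes of Fcgr2b and Fcgr3 lie 90.6 kb apart.

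Pattern receptors fell between E2A-/- and EBF-/- cells. Clec5a, a lectin receptor of myeloid cells, was at 10.34 and 10.21 in E2A-/- samples, dim in EBF-/- samples, and a dim 3.75 and 8.12 in RAG1-/- samples. Trem2, a lipid receptor of macrophages and microglia, was at 10.07 and 10.22, dim in EBF-/- samples, and 5.11 and 8.34. The bounds on these falls in EBF-/- cells were at least 23.3-fold for Clec5a (adjusted p = 0.0221, limma) and at least 21.3-fold for Trem2 (adjusted p = 0.0142). Cd14, which hands lipopolysaccharide to TLR4, was at 8.18 and 8.41, dim in EBF-/- samples, and 5.66 and 7.30, a bound of at least 5.91-fold in EBF-/- cells (adjusted p = 0.0179, limma). In all 3 genes RAG1-/- replicate 2 was the brighter RAG1-/- sample.

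The probes used for the Toll-like receptors were lowest in EBF-/- cells. Tlr2, the receptor for lipoproteins, was at 10.60 and 10.75 in E2A-/-, 9.39 and 9.52 in EBF-/- samples, and 10.24 and 10.03 in RAG1-/- samples, with all 3 groups apart. It fell by 1.22 (SE 0.10, adjusted p = 0.0045, limma) from E2A-/- to EBF-/- cells and was 0.68 higher (SE 0.10, adjusted p = 0.00844) in RAG1-/- than in EBF-/- cells. Tlr4, the receptor for lipopolysaccharide, was at 7.48 and 7.39, dim at both 5.48 and 5.28, and 7.66 and 7.89. With only a bound for the EBF-/- samples, it was at least 3.18-fold lower there than in E2A-/- cells (adjusted p = 0.00831, limma) and at least 4.03-fold higher in RAG1-/- than in EBF-/- cells (adjusted p = 0.00283). Another probe of Tlr4 was well above background in 2 samples, EBF-/- replicate 2 among them at 6.82. Its group means went the opposite way, with EBF-/- minus E2A-/- at 1.48 and RAG1-/- minus EBF-/- at -0.93. As its other samples were dim, these differences cannot be read as sizes. The order of the groups for Tlr4 thus rests on the probe used. Sirpa, the receptor for CD47 on phagocytes, was at 13.44 and 13.56, 12.33 and 12.36, and 9.45 and 10.33. It fell by 2.46 (SE 0.27, adjusted p = 0.00369, limma) from EBF-/- to RAG1-/- cells. Clec7a, the beta-glucan receptor, and Msr1, a scavenger receptor, were each well above background in 2 samples, Clec7a at 5.96 in E2A-/- replicate 1 and 7.53 in RAG1-/- replicate 2, and Msr1 at 5.84 in E2A-/- replicate 1 and 5.97 in RAG1-/- replicate 1.

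Macrophage membrane genes separated E2A-/- from EBF-/- cells except for Adgre1. Cd68, a lysosomal membrane protein, was at 11.82 and 12.12 in E2A-/-, 8.61 and 8.38 in EBF-/- samples, and 8.34 and 7.52 in RAG1-/- samples. It fell by 3.48 in EBF-/- cells (SE 0.28, adjusted p = 0.00405, limma). Gpnmb, a glycoprotein of macrophages, was at 10.38 and 10.25, dim in EBF-/- samples, and 5.28 and 6.09, at least 24.0-fold lower in EBF-/- cells (adjusted p = 0.00486, limma). Adgre1, the F4/80 antigen, was at 12.07 and 11.98 in E2A-/- samples and 11.92 and 11.88 in EBF-/- samples, and a dim 3.29 and 7.51 in RAG1-/- samples. It therefore differed little between the pre-pro-B groups (-0.08, SE 1.14, adjusted p = 0.969, limma), where the shared SE also holds the gap between the RAG1-/- samples. Adgre1 was called lower in RAG1-/- than in EBF-/- cells (adjusted p = 0.0123, limma). As 1 of the RAG1-/- samples was dim, the size of that fall is a bound, of at least 55.5-fold.

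The phagocyte oxidase subunits each had their own pattern. Cybb, the catalytic membrane subunit, was dim in both E2A-/- samples (2.88 and 3.18), at 7.91 and 7.73 in EBF-/- samples and at 6.80 and 7.63 in RAG1-/- samples. It was at least 5.36-fold higher in EBF-/- cells (adjusted p = 0.00451, limma) and at least 3.54-fold higher in RAG1-/- cells (adjusted p = 0.00245) than in E2A-/- cells. Ncf1, the p47-phox organiser, was at 10.97 and 11.01, 11.40 and 11.10, and 6.87 and 8.17, and fell by 3.74 (SE 0.35, adjusted p = 0.00246, limma) from EBF-/- to RAG1-/- cells. Ncf4, the p40-phox subunit, was at 13.60 and 13.70, 14.17 and 14.30, and 13.75 and 13.62. It was highest in EBF-/- cells, by 0.59 over E2A-/- cells (SE 0.07, adjusted p = 0.00904, limma).

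Mast cell and basophil genes were not called in any comparison by limma. Of the 3 tested, 1 had an unadjusted p under 0.05 between the pre-pro-B groups (Cpa3), and 0 did in either comparison with RAG1-/- cells. Cpa3, the mast cell carboxypeptidase, was dim in both E2A-/- samples, at 10.54 and 10.53 in EBF-/- samples, and at 4.95 and 10.53 in RAG1-/- samples. The EBF-/- samples were alike and the RAG1-/- samples were not. Its bound in EBF-/- against E2A-/- cells was at least 35.3-fold higher, with an adjusted p of 0.0925 (limma). The gap between the RAG1-/- samples entered this p-value too, as the spread was shared over the groups. Prss34, a protease of mast cells and basophils, was at 5.64 and a dim 6.71 in E2A-/-, a dim 6.40 and 6.39 in EBF-/- samples, and 6.30 and 9.33 in RAG1-/- samples. Fcer1a, the binding chain of the IgE receptor, was at 5.64 in E2A-/- replicate 1 and dim in the other pre-pro-B samples, with 5.77 and 7.17 in RAG1-/- samples. Mcpt8, a basophil protease, was dim in 5 samples and at 8.55 in RAG1-/- replicate 2. Ms4a2, the beta chain of the IgE receptor, was well above background in EBF-/- replicate 2 alone, at 6.45.

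**Figure D3:**
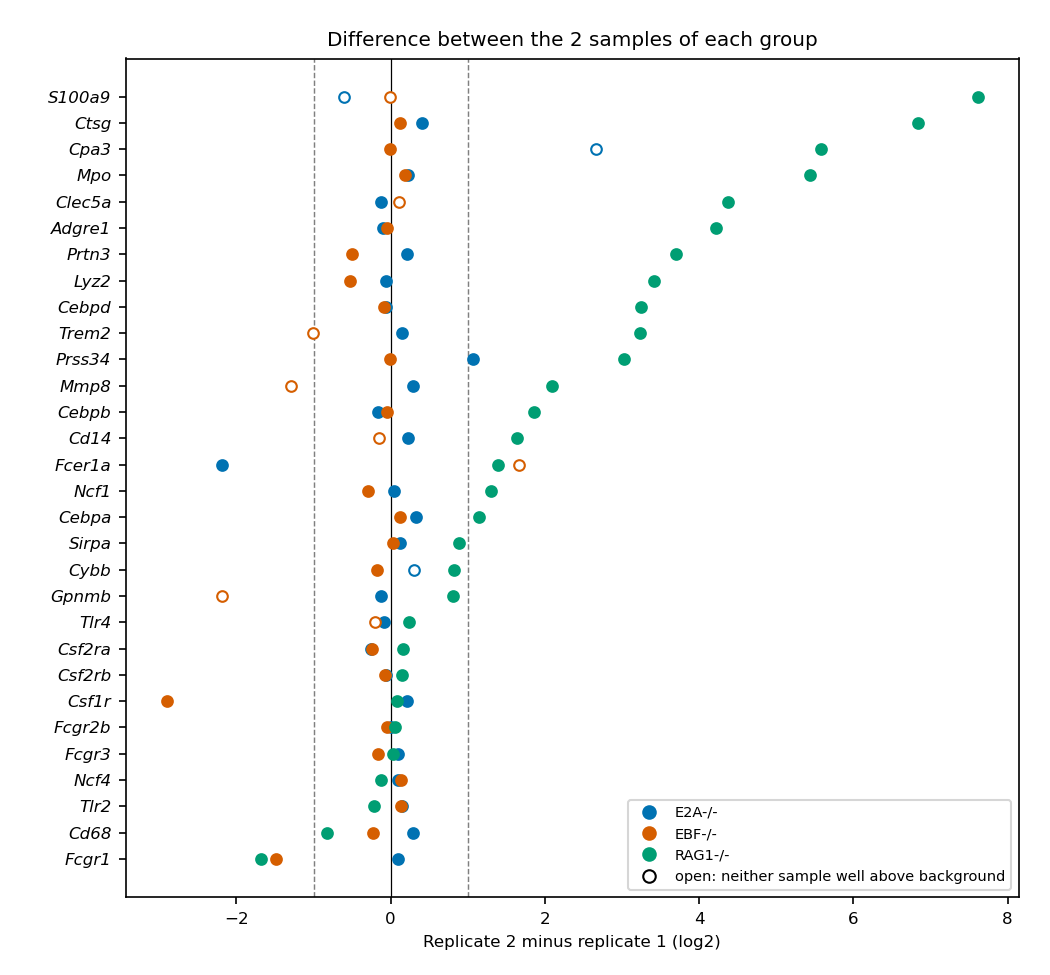
Replicate 2 minus replicate 1 on the log2 scale (x axis) for the 30 members that passed the filter (y axis, ordered by the RAG1-/- difference) in each group, with dashed lines at a 2-fold difference and open symbols where neither sample was well above background. In RAG1-/- cells 17 members lie right of the upper line and 1 left of the lower one.

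The RAG1-/- samples differed in these genes. Of the 30 tested members, 17 were more than 2-fold brighter in RAG1-/- replicate 2 than in replicate 1, against 2.83% of all 12814 genes, and Fcgr1 alone was more than 2-fold dimmer, against 2.2%. The median of replicate 2 minus replicate 1 was 1.35 over the members and -0.01 over all genes. In E2A-/- cells 2 members were brighter (background 1.96%) and 1 dimmer (6.13%), with a median of 0.10, and these were the 3 mast cell genes, dim in replicate 2. In EBF-/- cells 1 was brighter (3.43%) and 5 were dimmer (1.23%), with a median of -0.09. Of these, Fcer1a, Trem2, Gpnmb and Mmp8 were dim in both EBF-/- samples, Csf1r was dim in replicate 2, and Fcgr1 was measured in both. Replicate 2 was in Cy5 in the RAG1-/- group and in Cy3 in the others, so dye and replicate cannot be told apart within a group. RAG1-/- replicate 2 and EBF-/- replicate 2 were each the only assigned sample on their array, whose other channel has no RNA described in the labels and was not used.

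Granule, calgranulin, mast cell, receptor and C/EBP genes were among those apart. S100a9 was 196-fold brighter in replicate 2, Ctsg 115-fold, Cpa3 47.8-fold, Mpo 43.4-fold, Lyz2 10.6-fold and Prss34 8.15-fold, each measured in both RAG1-/- samples. In replicate 1 S100a9 (5.20) and Cpa3 (4.95) lay near the lowest level well above background there (4.71), so their folds are rough. For tested members dim in replicate 1 only a bound was had, of at least 13.0-fold for Prtn3, 10.6-fold for Clec5a, 6.96-fold for Adgre1 and 4.28-fold for Mmp8. Among members that were not tested the bounds were at least 45.6-fold for S100a8, 14.4-fold for Mcpt8, 7.08-fold for Clec7a, 6.61-fold for Elane and 1.65-fold for Ltf. Cebpd differed by 9.48-fold, Trem2 by 9.40-fold, Cebpb by 3.64-fold, Cd14 by 3.11-fold, Fcer1a by 2.63-fold, Ncf1 by 2.46-fold and Cebpa by 2.20-fold. Some of these depend on the probe. Other probes of Cebpb and Ncf1, well above background in all 6 samples, differed by 0.65 and 0.72 (log2), under 2-fold. Another Cebpa probe differed by 0.53. Other probes of Lyz2 and Trem2 stayed over 2-fold, at 2.80 and 1.89. The other 12 tested members stayed within 2-fold, among them Csf2ra, Csf2rb, Csf1r, Fcgr2b, Fcgr3, Tlr2, Tlr4, Ncf4 and Cybb. Fcgr1 was at 7.83 in replicate 1 and 6.15 in replicate 2. Its other probe went the opposite way, by 0.56 (log2), but was dim in both RAG1-/- samples.

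Lists of other genes are set against the same background, 2.83% of all genes more than 2-fold brighter in RAG1-/- replicate 2 and 2.2% dimmer. Of 13 B lineage markers tested 1 was brighter and none dimmer, with a median of -0.18, and of 9 T and NK cell markers none was more than 2-fold apart. Of 12 dendritic cell markers 1 was brighter and 3 were dimmer, with a median of -0.18. Of 5 stromal markers 1 was brighter and 1 dimmer, and of 4 erythroid and megakaryocyte markers 1 was brighter. Of 39 other myeloid genes 10 were brighter and 6 dimmer, with a median of 0.06. The brighter ones included Chil3, a secreted protein of granulocytes and macrophages, at 5.23 and 11.93, Lyz1, at 7.57 and 11.90, Hp, haptoglobin, at 6.41 and 10.55, and Ccr2, a monocyte chemokine receptor, at 4.43 and 8.45. The dimmer ones included Cd33, at 7.05 and 5.24, and Itgam, at 9.25 and 7.96. Of 12 other mast cell, basophil and eosinophil genes 5 were brighter and 2 dimmer, with Prg2, eosinophil major basic protein, at 6.62 and 10.24 and Kit, the SCF receptor, at 7.05 and 9.71. The part of other cell types in the difference was not tested.

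As wider lists in the tests, 25 of 39 other myeloid genes were lower in RAG1-/- than in E2A-/- cells and 4 higher, with a median of -1.43, against 23% and 22.8% of all genes. Mrc1, the macrophage mannose receptor, was at least 56.7-fold lower (adjusted p = 0.00096, limma). Between EBF-/- and E2A-/- cells 10 of the 39 were lower and 3 higher, against 11.6% and 12.6%, and Ly86 fell by 3.89 (SE 0.17, adjusted p = 0.0021, limma) while Itgax, an integrin of dendritic and myeloid cells, was 3.20 higher (SE 0.41, adjusted p = 0.01). Between RAG1-/- and EBF-/- cells 18 were lower and 5 higher, against 22.5% and 21.2%, with Tyrobp, the adaptor of many myeloid receptors, lower by a fitted -4.87 (SE 0.11, adjusted p = 0.00038, limma). Of 12 other mast cell, basophil and eosinophil genes 5 were lower and 2 higher in that comparison, among them Kit (-4.21, SE 0.74, adjusted p = 0.012, limma) and Fcer1g (-4.78, SE 0.33, adjusted p = 0.0013).

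Markers of other cell types also differed between the groups, and their part in the members' differences was not tested. From E2A-/- to EBF-/- cells, where 12.6% of all genes were higher and 11.6% lower, 7 of 9 T and NK cell markers tested were higher and 0 lower, and 4 of 12 dendritic cell markers were higher and 2 lower. Of 13 B lineage markers 3 were higher and 0 lower. From EBF-/- to RAG1-/- cells, where 21.2% of all genes were higher and 22.5% lower, 7 of the T and NK cell markers were lower and 0 higher, and 5 of the dendritic cell markers were lower and 2 higher. Stromal markers, listed because the pre-pro-B cultures held S17 cells, had 5 of 12 tested, of which 1 was higher and 1 lower in EBF-/- than in E2A-/- cells, 1 higher and 0 lower in RAG1-/- than in EBF-/- cells, and 2 higher and 1 lower in RAG1-/- than in E2A-/- cells. Their summed signal (log2) was 14.52 and 14.54 in the E2A-/- samples and between 13.91 and 13.96 in the other 4. Most of that sum was Acta2, at 14.49 and 14.51 in E2A-/- samples and between 13.85 and 13.88 in the other 4. Timp3 went the other way, at 2.94 and 3.40 in E2A-/- samples and 7.49 and 7.68 in EBF-/- samples. Erythroid and megakaryocyte markers had 4 of 10 tested. None was called between the pre-pro-B groups by limma, with 1 at an unadjusted p under 0.05, while 2 were lower in RAG1-/- than in EBF-/- cells and 1 than in E2A-/- cells.

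**Figure D4:**
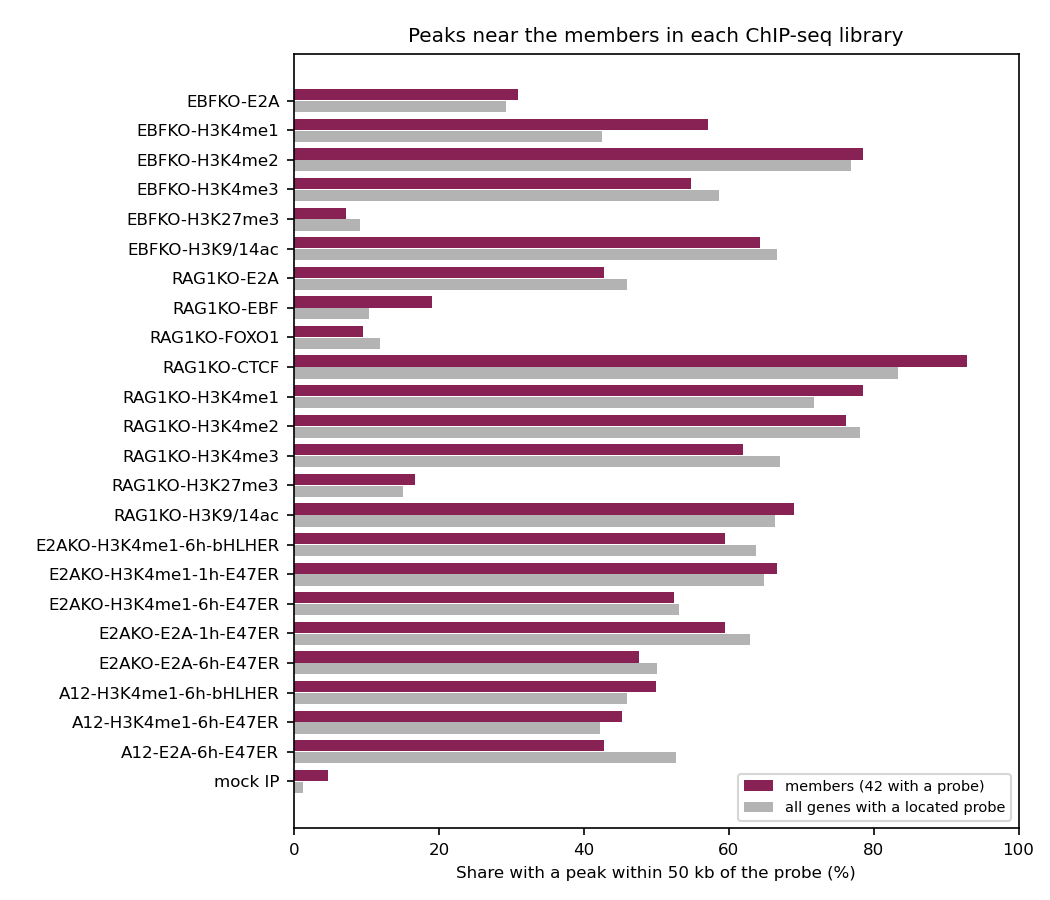
Share (x axis, %) of the 42 members with a probe and of all genes with a located probe that had at least 1 peak within 50 kb of the probe, for each ChIP-seq library and the mock (y axis). Members and all genes lie close to each other in most libraries, and EBF1 in RAG1-/- cells had 8 of 42 members against 10.4% of genes.

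Peaks were set against the probe position, since both are on mouse build mm8, and 50 kb either side counted as near. Each library gave 1 list without replicates, so its counts were not tested. Peak scores are the authors' whole-number values, whose meaning the sources used here do not give, and they rank peaks only within a list. Peaks of E2A lay near 13 of 42 members in EBF-/- cells, against 29.2% of 21231 genes, and near 18 in RAG1-/- cells, against 46%. EBF1 peaks in RAG1-/- cells lay near 8 members, against 10.4% of genes, and FOXO1 peaks near 4, against 11.8%. CTCF, which organises chromatin loops, had peaks near 39 members, against 83.4%. In the mock library 2 members had a peak, against 1.19% of genes. These were Csf2ra with 4 peaks, 1 of them on the probe itself, and Trem1 with 2. Shares for E2A and FOXO1 were thus near the background.

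**Figure D5:**
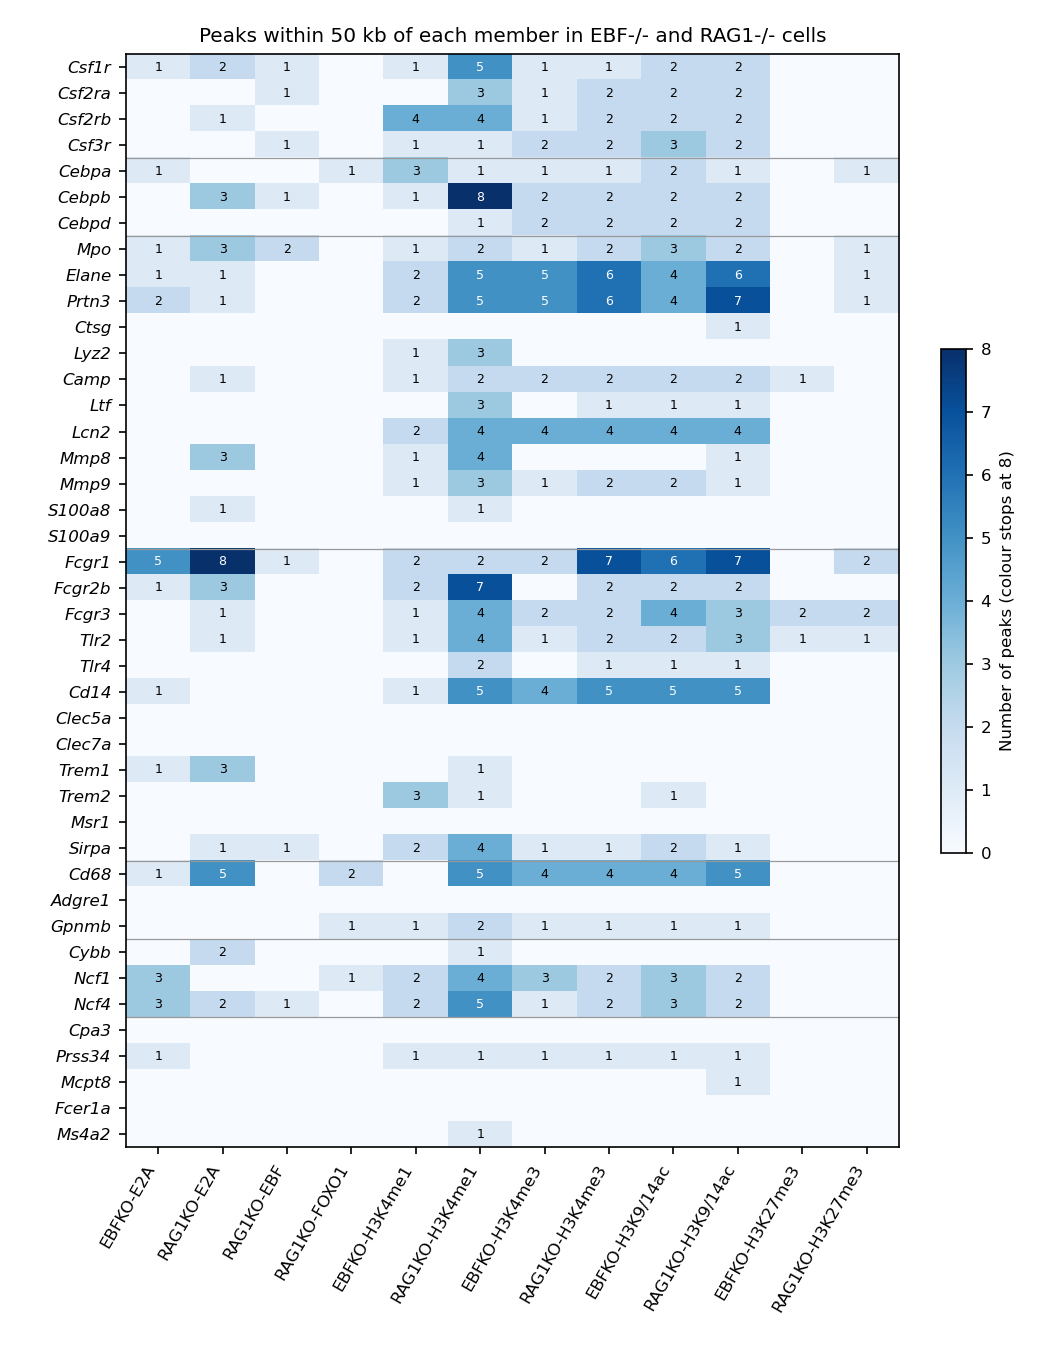
Number of peaks within 50 kb of each member (y axis, grouped by role) in 12 libraries of EBF-/- and RAG1-/- cells (x axis), with blank cells at 0. Fcgr1 has 5 and 8 E2A peaks in EBF-/- and RAG1-/- cells, and Adgre1 has none in any of these libraries.

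E2A peaks lay near 9 of 42 members in both EBF-/- and RAG1-/- cells, against 22.9% of all genes. Near 4 members they were listed in EBF-/- cells alone (Cebpa, Cd14, Ncf1 and Prss34), against 6.34% of genes. Near 9 they were listed in RAG1-/- cells alone (Csf2rb, Cebpb, S100a8, Fcgr3, Mmp8, Tlr2, Cybb, Camp and Sirpa), against 23.1%. The RAG1-/- list is longer, with 11846 peaks against 4531. The top-scored E2A peak near a member lay 17.7 kb from the Cebpb probe in RAG1-/- cells, at chr2:167363626-167363825 (score 72, rank 110). An EBF1 peak at chr2:167363625-167363824 (score 11, rank 672 of 1402) covered the same bases. Cebpb RNA was lowest in the same RAG1-/- cells.

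Fcgr1 had the most E2A peaks, 5 in EBF-/- samples, and 8 in RAG1-/- cells. Its top peak was at chr3:96355092-96355291 (score 48, rank 94) in EBF-/- cells and at chr3:96355196-96355395 (score 65, rank 182) in RAG1-/- cells, about 13.0 and 12.9 kb from the probe. The top-ranked EBF1 peak near any member was also by Fcgr1, at chr3:96407411-96407610 (score 24, rank 51), where E2A had a peak in EBF-/- cells (chr3:96407424-96407623, score 15). Mpo had E2A peaks at chr11:87571715-87571914 in EBF-/- cells (score 36) and chr11:87571708-87571907 in RAG1-/- cells (score 52), both 47.9 kb from its probe, with an EBF1 peak at chr11:87571580-87571779 (score 11). Near Sirpa an E2A peak (chr2:129344158-129344357, score 42) and an EBF1 peak (chr2:129344131-129344330, score 13) of RAG1-/- cells overlapped 20.5 kb from the probe. Csf1r had E2A peaks of score 35 and 25 and an EBF1 peak of score 10 about 39 kb from its probe in RAG1-/- cells. Near Ncf4 an EBF1 peak of score 10 overlapped an E2A peak of score 26. The other EBF1 peaks were near Csf3r (score 13, 3.00 kb from the probe) and Csf2ra (score 9).

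Of 9 EBF1 peaks near members, 5 overlapped an E2A peak of the same cells by at least 1 base, or 55.6% against 48.6% of all 1402 EBF1 peaks. None of the 5 FOXO1 peaks near members (by Cebpa, Ncf1, Gpnmb and, with 2, Cd68) overlapped an E2A peak, against 42% of all 1575. Of 21 distinct E2A peaks near members in EBF-/- cells 11 overlapped one in RAG1-/- cells (52.4%, against 44.7% of all), by Cd68, Csf1r, Fcgr1, Fcgr2b, Mpo, Ncf4 and Trem1.

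Histone marks were mapped in the same cells. H3K4me1, a mark of enhancers, lay near 24 members in EBF-/- cells, against 42.5% of genes, and near 33 in RAG1-/- cells, against 71.8%. All 24 were also marked in RAG1-/- cells, and the 9 marked there alone were Csf2ra, Cebpd, S100a8, Cd68, Trem1, Tlr4, Cybb, Ltf and Ms4a2. Over all genes 39.2% were marked in both, 32.5% in RAG1-/- cells alone and 3.25% in EBF-/- cells alone. H3K4me3, a mark of active promoters, lay near 23 and 26 members (58.7% and 67.1% of genes), H3K4me2 near 33 and 32 (76.8% and 78.1%) and H3K9/14 acetylation near 27 and 29 (66.6% and 66.4%). H3K27me3, the Polycomb mark of silenced genes, lay near 3 members in EBF-/- cells, against 9.05% of genes, and near 7 in RAG1-/- cells, against 15%. Fcgr3 and Tlr2 had it in both, Camp in EBF-/- cells alone, and Cebpa, Mpo, Elane, Prtn3 and Fcgr1 in RAG1-/- cells alone, against 3.33%, 5.72% and 11.7% of all genes in that order. Elane and Prtn3 lie 6.08 kb apart and share their peaks, as do Ctsg and Mcpt8 (16.1 kb) and S100a8 and S100a9 (22.7 kb) in part. The longer RAG1-/- lists, 2130 against 1311 for H3K27me3 and 23054 against 7544 for H3K4me1, leave more peaks to find.

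Reintroduced E47-ER bound near 25 members after 1 h of tamoxifen in E2A-/- cells, against 62.9% of genes, near 20 after 6 h, against 50.1%, and near 18 after 6 h in A12 cells, against 52.7%. Elane and Prtn3, which share a window, had 20 peaks each after 1 h and 17 and 16 after 6 h. Cebpb had 19 after 1 h, 9 after 6 h and 6 in A12 cells, with a peak within 0.2 kb of its probe in all 3 lists. Lcn2 had 13, 7 and 7, and Ncf1 12, 11 and 2. Of 135 distinct E47-ER peaks near members at 1 h, 14 (10.4%) overlapped an E2A peak of RAG1-/- cells, against 16.5% of all 26792, and 0 overlapped a mock peak. H3K4me1 in E2A-/- cells lay near 28 members at 1 h of E47-ER, against 64.9% of genes, near 22 at 6 h, against 53.1%, and near 25 at 6 h of bHLH-ER, against 63.8%. In A12 cells it lay near 19 members at 6 h of E47-ER, against 42.2%, and near 21 at 6 h of bHLH-ER, against 45.9%. In all 7 libraries of E2A, EBF1, FOXO1 and E47-ER, 11 of 42 members had no peak within 50 kb, against 26% of all genes: Ctsg, Lyz2, S100a9, Adgre1, Trem2, Clec5a, Clec7a, Msr1, Cpa3, Mcpt8 and Ms4a2.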

How the data were processed

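Intensity values were deposited by the authors as Agilent Feature Extraction 9.5.3.1 output, which was background-subtracted, detrended and dye-normalized (linear and LOWESS) within each array, per the file headers. The 6 RNA samples sat on 4 arrays of 1 slide. Each was read from its own dye's channel, and the flags for spots well above background (deposited as other values of 0 or 1) were used as given. After control and outlier spots were left out, log2 processed signals were quantile normalized over the 6 channels and averaged by probe. Of 41174 probes 22132 were kept. The brightest probe stood for a gene, and names were updated through RefSeq genes of GRCm38.p6. All 12814 genes entered 1 limma 3.58.1 fit (R 4.3.3) whose terms were group and dye, with a random array block (correlation -0.028) and a trended prior, at a Benjamini-Hochberg threshold of 0.05. The fit was also run on simulated data with independent noise and no dye or array effect, so its handling of those effects was not tested. Same-numbered samples did not deviate together (r of their differences -0.40, 0.17 and 0.02 across genes), so numbers were not used as pairs. The -0.40 was between the E2A-/- and EBF-/- differences. E2A-/- replicate 2 and EBF-/- replicate 1 shared an array, and the part of the array in it was not tested.

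Peak scores are deposited values of unstated meaning from HOMER, per the submitters' processing notes, on build mm8, with 1 list per library and no pooling stated. Values per sample are given for members called in any comparison or over 2-fold apart between the RAG1-/- samples with at least 1 of them well above background. The members, gene lists and tests were chosen with earlier results of these data known. The number of arrays limits the precision. Alternatives were centring on the 75th percentile, normexp (offset 50) with loess, other filters, probe means, no dye term, no array block, a replicate block, leaving out each sample, and other distances and score limits for peaks.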

Additional observations from a re-analysis of the deposited data

How the results depend on the processing

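None of the 47 called member changes changed direction under any alternative in which it was tested, and 23 kept their call under all of those. Most of the others lost it when 1 sample was left out. Another alternative ended 4 calls. These were Cebpd in RAG1-/- against EBF-/- cells without the filter and Sirpa in EBF-/- against E2A-/- cells under the strict filter. The rest were Csf2rb in RAG1-/- against E2A-/- cells with probe means and Csf2ra in RAG1-/- against EBF-/- cells without the dye term. Counts have no direction to change, and members never called were not followed. With only genes well above background in all 6 samples, 15 members were tested, so the calls of the others were not checked by that filter. Of these 15, 4 were lower in EBF-/- than in E2A-/- cells and 10 in RAG1-/- than in E2A-/- cells. With the replicate number as a block beside the dye term, 5 members were higher in EBF-/- than in E2A-/- cells, 12 in RAG1-/- than in EBF-/- cells and 7 in RAG1-/- than in E2A-/- cells, against 3, 4 and 3 without the block, while 20.9%, 26.5% and 27.6% of all genes were, against 12.6%, 21.2% and 22.8%, and the cause was not tested. Leaving out 1 sample gave 0 to 5 members higher and 4 to 17 lower in EBF-/- against E2A-/- cells, 3 to 12 higher and 5 to 13 lower in RAG1-/- against EBF-/- cells, and 3 to 7 higher and 10 to 20 lower in RAG1-/- against E2A-/- cells. A group left with 1 sample was assumed to vary like the others. Members more than 2-fold dimmer in RAG1-/- replicate 2 numbered 0 with normexp and loess, 2 without the filter and 0 with the mean of the kept probes.

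Counts of members near a peak depend on the distance by construction. The share of all genes was taken only at 50 kb with the full lists. The counts below thus have no background and cannot be read as high or low. Libraries whose count moved less from that at 50 kb, as a ratio, are left out. Within 10 kb they were 3 for EBFKO-E2A, 5 for EBFKO-H3K4me1, 12 for EBFKO-H3K4me3, 0 for EBFKO-H3K27me3, 16 for EBFKO-H3K9/14ac, 4 for RAG1KO-E2A, 1 for RAG1KO-EBF, 1 for RAG1KO-FOXO1, 22 for RAG1KO-CTCF, 19 for RAG1KO-H3K4me1, 21 for RAG1KO-H3K4me2, 14 for RAG1KO-H3K4me3, 2 for RAG1KO-H3K27me3, 13 for RAG1KO-H3K9/14ac, 15 for E2AKO-H3K4me1-6h-bHLHER, 15 for E2AKO-H3K4me1-1h-E47ER, 10 for E2AKO-H3K4me1-6h-E47ER, 16 for E2AKO-E2A-1h-E47ER, 13 for E2AKO-E2A-6h-E47ER, 5 for A12-H3K4me1-6h-bHLHER, 4 for A12-H3K4me1-6h-E47ER, 6 for A12-E2A-6h-E47ER and 1 for mock IP. Within 100 kb they were 22 for EBFKO-E2A and 6 for EBFKO-H3K27me3. With the upper part of each list by score, split at its median, they were 7 for EBFKO-E2A, 15 for EBFKO-H3K4me1, 14 for EBFKO-H3K4me3, 11 for RAG1KO-E2A, 5 for RAG1KO-EBF, 1 for RAG1KO-FOXO1, 17 for RAG1KO-H3K4me3, 19 for RAG1KO-H3K9/14ac, 13 for E2AKO-E2A-6h-E47ER, 10 for A12-H3K4me1-6h-bHLHER and 11 for A12-H3K4me1-6h-E47ER. Dim probes limit the array results: a member dim in a group has only a bound there.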
